A study of Mus musculus with 41 samples.

Results

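The genes described here are 9 genes of mature adipocytes, the fat-storing cells of the mammary fat pad: Adipoq, Lep, Cfd, Retn, Plin1, Cidec, Fabp4, Lpl and Pparg. They were chosen by symbol, as a measure of the fat tissue around a tumor, from the 47480 genes of the deposited matrix, and all 9 were found in it. RNA was sequenced from 41 untreated mouse mammary tumors in the Balb/c background, all of which lack p53, with 1 library per tumor. Of these, 28 were Plk2-/-; p53-/- and 13 were p53-/-. The series as a whole is described as grown after orthotopic injection into syngeneic hosts and passed serially through such hosts. However, 7 Plk2-/-; p53-/- tumors carry numbers of primary tumors in the study's latency data, so primary and passaged tumors may both be present. The Plk2-/-; p53-/- tumors began as mammary epithelial cells of knockout mice placed in the cleared fat pads of wild-type recipients, so the fat around a graft was tissue of the host. PLK2null-732, PLK2null-733 and PLK2null-743 are claudin-low Plk2-/-; p53-/- tumors, and T11 is the claudin-low p53-/- tumor. Claudin-low tumors have lost the tight-junction claudins and much of the epithelial program. A tumor's value for a gene is its estimated read count scaled so that the upper quartile of nonzero values was 1000 in each tumor.

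An adipocyte keeps triglyceride in a single large droplet and takes up fatty acids that lipoprotein lipase frees in nearby capillaries. It also secretes hormones, the adipokines, that report fat mass to other tissues. The nuclear receptor PPARG, with C/EBP factors, turns on most of these genes when a fat cell forms. Not all of the 9 genes belong to the fat cell alone. Fabp4, Pparg and the fatty acid transporter Cd36 are also active in capillary endothelium, and Lpl is made by macrophages and muscle. In bulk tumor RNA, fewer cells of a type and less RNA per cell cannot be told apart.

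RefSeq promoter windows on GRCm38.p6, from 250 bases before to 50 after a transcript start, were held for 7 of the 9 genes, in 10 windows. The 3 printed below are of Lep, a hormone, and of Plin1 and Cidec, the droplet coats. They were picked because these genes moved together across tumors and because these windows held matches to a relaxed C/EBP motif. Capitals mark matches to TTNNGCAA on either strand. The Lep window is chr6:29059971-29060270 (plus strand), the Plin1 window chr7:79732727-79733026 (minus strand) and the printed Cidec window chr6:113434715-113435014 (minus strand). Another Cidec window, chr6:113435711-113436010 (minus strand), held no match and is not printed.
Lep: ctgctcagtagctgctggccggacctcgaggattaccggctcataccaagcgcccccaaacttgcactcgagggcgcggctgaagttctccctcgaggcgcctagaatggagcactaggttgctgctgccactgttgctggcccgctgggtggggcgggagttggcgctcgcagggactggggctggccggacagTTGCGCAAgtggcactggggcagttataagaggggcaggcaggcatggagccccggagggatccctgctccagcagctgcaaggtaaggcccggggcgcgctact
Plin1: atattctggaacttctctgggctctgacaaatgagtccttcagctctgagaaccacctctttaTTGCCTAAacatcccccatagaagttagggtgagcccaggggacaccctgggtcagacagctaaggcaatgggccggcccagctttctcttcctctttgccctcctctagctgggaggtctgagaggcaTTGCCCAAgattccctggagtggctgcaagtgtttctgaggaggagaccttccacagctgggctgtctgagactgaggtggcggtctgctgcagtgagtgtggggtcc
Cidec: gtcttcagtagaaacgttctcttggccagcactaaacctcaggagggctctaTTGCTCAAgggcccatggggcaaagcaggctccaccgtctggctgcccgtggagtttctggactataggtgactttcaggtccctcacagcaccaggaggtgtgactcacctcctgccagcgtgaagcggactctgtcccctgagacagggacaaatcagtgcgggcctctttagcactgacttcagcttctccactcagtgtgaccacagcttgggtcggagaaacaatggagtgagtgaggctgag

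The relaxed motif was found in 4 of the 10 windows, of Lep, Plin1, Cidec and Pparg, and in 10.8% of all 32851 RefSeq windows of this length. It was absent from the windows of Adipoq, Cfd and Retn, which moved together with Lep, Plin1 and Cidec, and from the other windows of Cidec and Pparg. The C/EBP palindrome TTGCGCAA, a subset of the relaxed motif, was found in the Lep window and in 0.183% of all windows. The direct repeat AGGTCANAGGTCA, which PPARG binds with a retinoid X receptor, was found in 0 of the 10 windows and in 0.0396% of all windows. A match is a description of these letters and not a binding site. No window was held for Fabp4 or Lpl.

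Depth set how low a level could be seen. The tumors held 29409605 to 70867995 fragments on genes, and 1 read was worth 0.388 to 0.817 in the deposited unit. A count of 3 reads, taken as the floor in each tumor, was 1.16 to 2.45, and this floor covers counting error only. The p53-/- libraries were deeper (median, 58042664 fragments) than the Plk2-/-; p53-/- libraries (median, 39053952.5). The titles of all 13 p53-/- libraries, and of no other, carry a numbered series name, so any library batch and the genotype cannot be told apart. The labels do not say which tumors share a donor line, so the tumors may not be independent and p-values measure only the spread between them.

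Measured per kilobase of annotated exon, the levels of the 9 genes differed widely within the same tumors. The median over 41 tumors of this per-length level was 197 for Fabp4, the fatty acid binding protein of fat cells and capillaries. It was 60.6 for Cfd and 44.0 for Lpl. Pparg followed at 15.5, Adipoq at 9.22, Cidec at 4.81, Retn at 2.72, Plin1 at 1.34 and Lep at 0.389. Plin1 and Lep, both restricted to fat-storing cells, were thus the lowest, and the genes with known sources outside fat were among the highest. Levels per length depend on which exons the annotation joins. For Fabp4 the joined exons cover the whole gene, 4489 bases, so introns are counted and its level is understated. For Lpl the joined exons come to 10478 bases. The order of the genes here is therefore not a ranking of transcript levels.

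The adipokines come first. Adipoq encodes adiponectin, a hormone made by mature fat cells. In the 28 Plk2-/-; p53-/- tumors Adipoq was at 0 in the lowest, at 9.18 in the median and at 249 in the highest tumor. In the 13 p53-/- tumors its lowest value was 1.06, its median 21.7 and its highest 132. It was at 0 in 4 tumors (PLK2null-1987, PLK2null-7749, PLK2null-7750 and PLK2null-7753) and above 100 in 5 tumors of either genotype (PLK2null-1981, PLK2null-1964, p53null-2225L, p53null-2396R and p53null-2153L). These 5 tumors held 56.5% of the Adipoq signal summed over all 41. Adipoq reached 10 in 14 of 28 Plk2-/-; p53-/- tumors and in 10 of 13 p53-/- tumors, and the ranges of the groups overlapped.

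Cfd encodes adipsin, a complement protease secreted by fat cells. Its lowest, median and highest values were 0, 26.8 and 2385 in the Plk2-/-; p53-/- tumors. They were 5.18, 175 and 1007 in the p53-/- tumors. PLK2null-1981 alone held 29.9% of the Cfd signal, and it was also highest for Adipoq, Plin1 and Cidec. The same tumor was highest of all 41 for genes of B lymphocytes, with Cd79a at 2625 and Ms4a1 at 452, against medians of 6.87 and 1.75 over all tumors, and their part in its fat gene values was not tested. Retn, the hormone resistin, ran from 0 through a median of 3.25 to 68.9 in the Plk2-/-; p53-/- tumors. It ran from 0 through 18.9 to 94.9 in the p53-/- tumors, where T11 was the tumor at 0. Lep, the satiety hormone leptin, was at or below the floor in 20 of 28 Plk2-/-; p53-/- tumors and in 3 of 13 p53-/- tumors. Its medians were 0.672 and 4.09, its highest values 47.2 (PLK2null-7763) and 21.2 (p53null-2396R), and it was at 0 in 11 Plk2-/-; p53-/- tumors.

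Plin1 and Cidec encode proteins of the droplet surface: perilipin 1 gates lipolysis, and CIDEC fuses small droplets into the single large one. Plin1 was at 0 in 5 of the Plk2-/-; p53-/- tumors, with a median of 4.27 and a highest value of 147. In the p53-/- tumors it ran from 0.797 to 74.6 with a median of 15.7. Cidec was at 0 in 6 of the Plk2-/-; p53-/- tumors, with a median of 4.09 and a highest value of 218. In the p53-/- tumors it ran from 1.20 to 202 with a median of 40.3. The same tumors were thus low for both droplet genes and for the adipokines. In PLK2null-7749 all 6 of Adipoq, Lep, Cfd, Retn, Plin1 and Cidec were at 0, and in PLK2null-1987, PLK2null-7750 and PLK2null-7753 all 6 were at or below the floor.

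**Figure D1:**
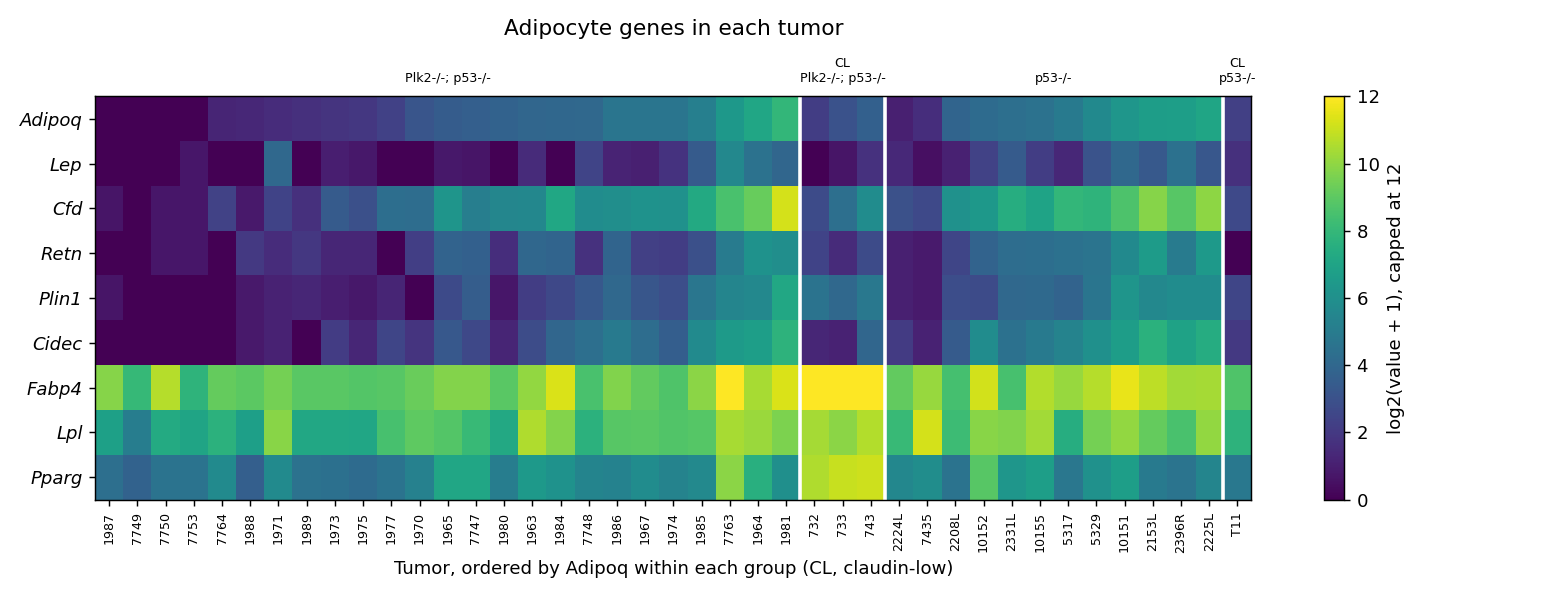
Level of the 9 adipocyte genes (rows) in each of 41 tumors (columns, ordered by Adipoq within each group), as log2(value + 1), with the color scale capped at 12. Adipoq, Lep, Cfd, Retn, Plin1 and Cidec brighten together from left to right within each genotype, while Fabp4 and Pparg are brightest in the 3 claudin-low tumors (CL) of the Plk2-/-; p53-/- genotype and in PLK2null-7763.

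Fabp4, Lpl and Pparg were never near the floor. Fabp4, which carries fatty acids inside the cell, ran from 225 through a median of 782 to 124638 in the Plk2-/-; p53-/- tumors. In the p53-/- tumors it ran from 353 through 1297 to 3121. The 5 highest tumors (PLK2null-743, PLK2null-732, PLK2null-733, PLK2null-7763 and p53null-10151) held 91.8% of the Fabp4 signal of all 41. Pparg, the receptor that directs fat cell formation, ran from 11.2 through 45.2 to 2188 in the Plk2-/-; p53-/- tumors and from 22.6 through 45.8 to 478 in the p53-/- tumors. Its 5 highest tumors held 79.2% of its signal, and the first 4 of them were again the 3 claudin-low Plk2-/-; p53-/- tumors and PLK2null-7763. Lpl, the lipase that frees fatty acids from lipoproteins, was spread more evenly, from 32.5 through 436 to 1572 in the Plk2-/-; p53-/- tumors. In the p53-/- tumors it ran from 177 through 709 to 2429, and its highest tumor, p53null-7435, had Adipoq at 1.99.

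**Figure D2:**
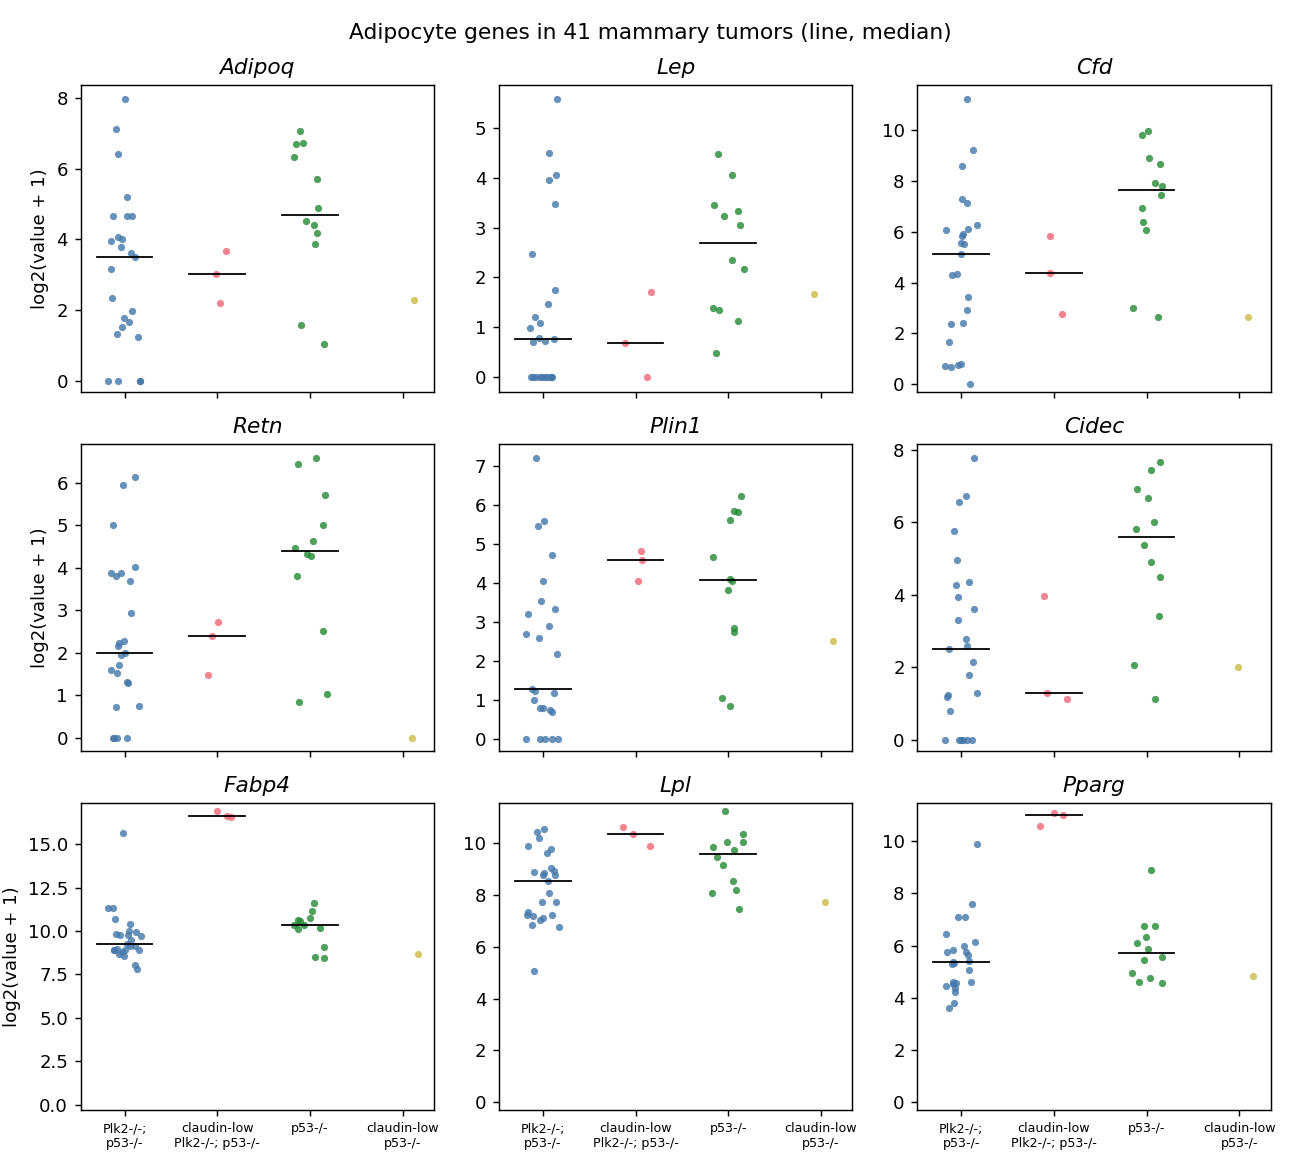
Each panel plots one adipocyte gene as log2(value + 1), with a point per tumor and a line at the median for the 25 other Plk2-/-; p53-/- tumors, the 3 claudin-low Plk2-/-; p53-/- tumors, the 12 other p53-/- tumors and T11 (no line). Fabp4 and Pparg separate the 3 claudin-low Plk2-/-; p53-/- tumors from the other 25, and Adipoq, Lep, Cfd, Retn, Plin1 and Cidec do not.

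How far the genes followed one another was measured as the correlation of log2(value + 1) with Adipoq across tumors, with a 2-sided permutation test of 100000 resamples and adjustment over the 8 genes. Cfd followed Adipoq most closely, with a Pearson r of 0.977 and a Spearman rho of 0.964 over the 41 tumors. The r was 0.946 for Cidec (rho, 0.949), 0.895 for Retn (rho, 0.885), 0.889 for Plin1 (rho, 0.863) and 0.743 for Lep (rho, 0.738). For each of these 5 genes p was 1e-05 for both measures, the smallest that the resamples can give (adjusted p = 1.6e-05). Without the 2 tumors farthest from the median of Adipoq, PLK2null-1981 and PLK2null-1987, r was 0.972 for Cfd, 0.939 for Cidec, 0.881 for Retn, 0.874 for Plin1 and 0.718 for Lep. Within the 28 Plk2-/-; p53-/- tumors r was 0.976 for Cfd, 0.941 for Cidec, 0.862 for Retn, 0.844 for Plin1 and 0.685 for Lep. Within the 13 p53-/- tumors it was 0.972 for Cfd, 0.963 for Cidec, 0.945 for Retn, 0.966 for Plin1 and 0.808 for Lep. The relation therefore held within either genotype.

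Fabp4, Pparg and Lpl followed Adipoq less closely. Over the 41 tumors r was 0.553 for Lpl (rho, 0.510), 0.267 for Pparg (rho, 0.405; permutation adjusted p of r, 0.105) and 0.248 for Fabp4 (rho, 0.408; 0.12). Within the 28 Plk2-/-; p53-/- tumors r was 0.649, 0.396 and 0.263. The claudin-low Plk2-/-; p53-/- tumors and PLK2null-7763 formed a separate cluster for Fabp4 and Pparg. The 3 genes were therefore also examined in the 24 remaining Plk2-/-; p53-/- tumors and in the 13 p53-/- tumors. The 4 tumors were set aside for their own Fabp4 and Pparg values, so the p-values in the 24 are descriptive for these 2 genes. In the 24 tumors r was 0.710 for Lpl (rho, 0.697; permutation p = 9e-05, adjusted p = 0.000144). It was 0.677 for Pparg (rho, 0.651; permutation p = 0.00028, adjusted p = 0.000373). Without PLK2null-1964 and PLK2null-1981, the tumors farthest from the median of Adipoq, r was 0.656 for Lpl and 0.623 for Pparg. For Fabp4 r was 0.498 (permutation p = 0.0131, adjusted p = 0.0131), but rho was 0.319 (permutation p = 0.129), and r was 0.265 without the same pair of tumors, on which the relation rests. In the p53-/- tumors none of the 3 passed the threshold, with r at 0.550 for Fabp4 (permutation adjusted p = 0.0682), 0.123 for Lpl (permutation adjusted p = 0.786) and -0.04 for Pparg (permutation adjusted p = 0.907). The corresponding rho was 0.527 for Fabp4, 0.154 for Lpl and -0.08 for Pparg, and without p53null-2224L and p53null-7435 r was 0.622, 0.393 and -0.09.

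**Figure D3:**
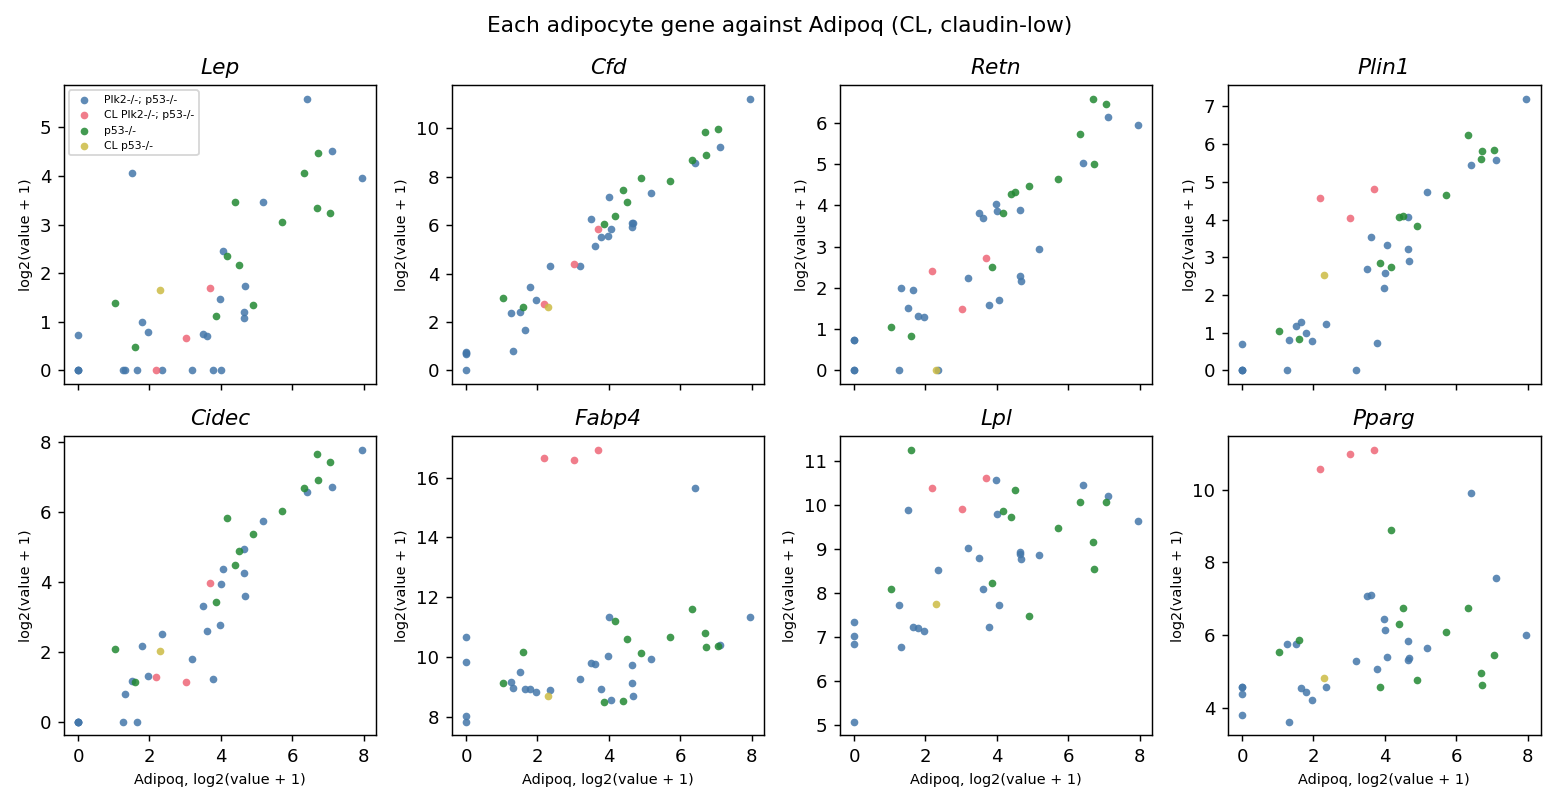
Each panel plots one adipocyte gene against Adipoq over the 41 tumors, both as log2(value + 1), with colors for genotype and claudin-low (CL) tumors. Cfd, Cidec, Retn and Plin1 lie along a line, while in the panels of Fabp4 and Pparg the 3 claudin-low Plk2-/-; p53-/- tumors sit far above the rest at low Adipoq.

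Among 17208 genes with a mean of at least 10, the genes outside the 9 whose log2 values were most like those of Adipoq over the 41 tumors are given with no p, since they were picked for likeness. Pck1, a glycerol-forming enzyme of fat cells and liver, had r = 0.892, and Car3, a carbonic anhydrase abundant in fat, 0.830. The major urinary protein genes Mup10 and Mup9 had 0.804 and 0.777, and Cyp2e1, a cytochrome P450, 0.769. Mup10 and Mup9 belong to a family of near-identical copies, so the share of reads assigned to each is uncertain. The next were 5 C-type lectin genes of dendritic cells and macrophages, Cd209b (0.687), Cd209g (0.673), Cd209f (0.665), Cd209d (0.656) and Cd209a (0.626), which are also close copies of one another. The median of Pck1 was 2.16 in the Plk2-/-; p53-/- tumors and 8.99 in the p53-/- tumors, and that of Car3 39.7 and 170. Cfd, Cidec and Retn ranked above all of these, Plin1 between Pck1 and Car3.

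Whether the fat genes differed between genotypes was tested first. Cidec was lower in the 28 Plk2-/-; p53-/- than in the 13 p53-/- tumors. Cfd and Retn passed the threshold narrowly, with calls that were not stable, and none of the genes tested was called higher. Cidec had a mean of 21.9 ± 46.6 (SD, n = 28) against 63.3 ± 66.6 (SD, n = 13), and its difference in mean log2(value + 1), Plk2-/-; p53-/- minus p53-/-, was -2.28 (standard error, 0.736; adjusted p = 0.0121 in limma), 4.84-fold lower on that scale. Cfd was at 152 ± 456 (SD, n = 28) and 286 ± 332 (SD, n = 13), a difference of -2.24 (standard error, 0.901; adjusted p = 0.0443 in limma). Retn was at 9.80 ± 17.03 (SD, n = 28) and 28.1 ± 31.2 (SD, n = 13), a difference of -1.48 (standard error, 0.604; adjusted p = 0.0478 in limma). With no filter on low values the adjusted p of Retn was 0.0666 in limma. For all 3 genes the groups overlapped, and the highest Cidec and Cfd values belonged to a Plk2-/-; p53-/- tumor, PLK2null-1981.

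The other genes did not pass the threshold. The differences were -1.41 for Plin1 (adjusted p = 0.0787 in limma), -1.43 for Adipoq (0.0895), -0.71 for Lpl (0.206), 0.31 for Pparg (0.727) and 0.39 for Fabp4 (0.713). Lep had a mean below 10 and was not tested there; with no filter on low values its difference was -1.19 (adjusted p = 0.0710 in limma). Of the 8 genes tested, 3 were thus called lower, among them Retn, which reached the filter on low values through the p53-/- tumors. The background was 39.5% of all 17208 genes called, 24.3% higher and 15.3% lower. The median difference of the 8 genes was -1.42, against 0.10 over all genes tested. After rescaling by trimmed mean of M values (TMM) factors, 3286 genes were higher and 3629 lower, in place of 4175 and 2627, and the median of all genes shifted by -0.13. Cidec, Cfd and Retn were lower under that scaling too.

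The calls of Cfd and Retn were not stable. Retn reached the filter on low values through the p53-/- tumors, since its mean in the 28 others was 9.80. With no filter the adjusted p in limma was 0.0622 for Cfd and 0.0666 for Retn. A permutation test over tumors gave an adjusted p of 0.0158 for Cidec, 0.0522 for Cfd and 0.0540 for Retn. Leaving out each tumor in turn left between 1 and 5 genes called, 1 without p53null-10151, for example, and 5 without p53null-2224L, p53null-7435 or PLK2null-1981. Cidec stayed called in all 41 of these fits, and Cfd lost its call in 21 and Retn in 27. Without the 4 claudin-low tumors the difference was -2.46 for Cidec (adjusted p = 0.0103 in limma), -2.56 for Cfd (0.0281), -1.78 for Retn (0.0195) and -1.76 for Plin1 (0.0321), and those of Pparg and Fabp4 turned to -0.35 and -0.48, neither past the threshold.

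Other gene groups are counted here and in the next paragraph beside all genes, of which 15.3% were called lower and 24.3% higher. Of 16 other adipocyte genes tested, from a list of 20, 0 were higher and 4 lower, with a median difference of -0.69. They were Car3 (-2.72; adjusted p = 0.0163 in limma), the triglyceride synthase Dgat2 (-1.33; 0.0179), the adipogenic factor Cebpa (-1.17; 0.00154) and the lipase Pnpla2 (-0.69; 0.000824). Of 5 brown fat genes tested, Elovl3 (-2.58) and Cox7a1 (-2.05) were lower and 0 were higher. Of 7 genes of adipocyte progenitors, Dlk1 (-2.47) and Pi16 (-2.21) were lower and 0 were higher. The enzymes of fatty acid synthesis, which tumor cells also use, had Elovl6 (0.77), Acaca (0.57) and Acly (0.45) higher and 0 lower of 8, against 24.3% of all genes called higher, and Elovl6 lost its call with no filter on low values (adjusted p = 0.0565 in limma). Among 9 adipokine receptors and partners of Lpl, Adipor1 (-0.36) and the PPARG partner Rxra (-0.35) were lower and 0 were higher.

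Skeletal muscle lies beneath some mammary glands, and its genes moved in the same direction. Of 6 tested, 5 were lower in the Plk2-/-; p53-/- tumors, Acta1 (-2.89), Myh4 (-2.60), Pvalb (-2.47), Ckm (-2.26) and Mylpf (-1.18), with 0 higher. Within the 28 Plk2-/-; p53-/- tumors only 5 of the 6 reached the filter on low values, so at least 1 was tested here through the p53-/- tumors. The summed level of the 6 ran from 20.7 to 3232 in the Plk2-/-; p53-/- tumors and from 35.9 to 41030 in the p53-/- tumors. It was 41030 in p53null-2153L and 27879 in p53null-7435, and at most 470 in the other p53-/- tumors. The correlation of Adipoq with the log2 muscle sum was -0.34 in the 28 tumors (rho, -0.34; permutation p = 0.0815, adjusted p = 0.0919 over 3 genes) and -0.07 in the 13 (rho, 0.209; permutation p = 0.825, adjusted p = 0.896). Without the 2 tumors farthest in muscle sum the Adipoq value was -0.27 and -0.01. For Cidec r was -0.37 in the 28 tumors (permutation p = 0.0455, adjusted p = 0.0919) and -0.07 in the 13 (rho, 0.231). For Cfd it was -0.32 (permutation p = 0.0919) and -0.05 (rho, 0.308). Of 6 endothelial, 6 fibroblast and 6 epithelial genes, 0 passed the threshold in either direction. Among 6 macrophage genes Cd68 (0.96) was higher, and among 5 Schwann cell genes Cdh19 (2.42). The B cell receptor partner Cd22 was higher by 1.31 (adjusted p = 0.00174 in limma), and Cd79a (0.77), Cd79b (-0.62) and Ms4a1 (0.56) did not pass the threshold. The part of these other tissues in the fat gene differences was not tested.

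**Figure D4:**
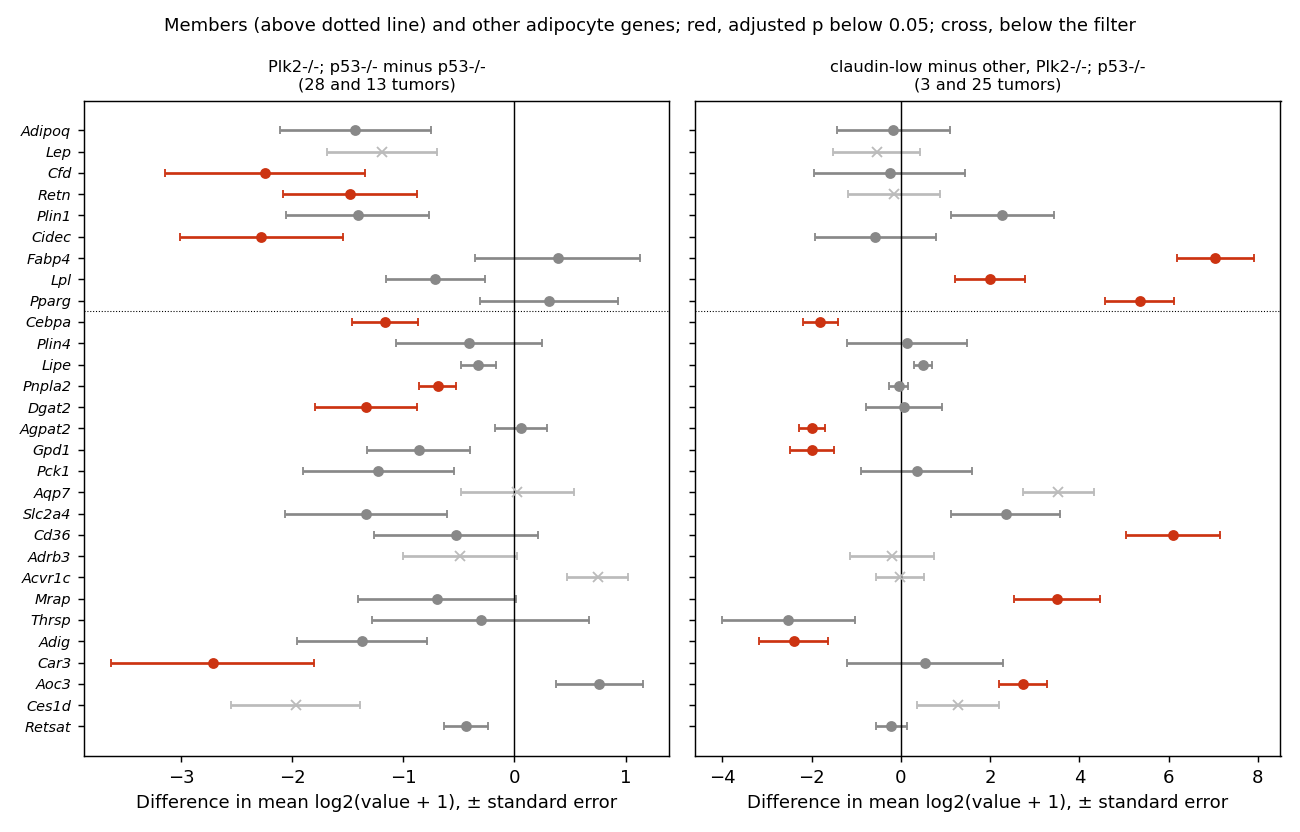
Difference in mean log2(value + 1) with its standard error for the 9 adipocyte genes, above the dotted line, and 20 other adipocyte genes, between genotypes (left) and between claudin-low and other Plk2-/-; p53-/- tumors (right). Red points passed an adjusted p of 0.05 and crosses mark genes below the filter on low values. On the left the red points all lie below 0, and on the right Fabp4, Pparg and Cd36 lie farthest above it.

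The claudin-low Plk2-/-; p53-/- tumors divided the 9 genes. Fabp4 was at 103406 in PLK2null-732, 99093 in PLK2null-733 and 124638 in PLK2null-743, against a lowest, median and highest value of 225, 613 and 51564 in the other 25 tumors. All 3 lay above all 25, and the difference in mean log2(value + 1), claudin-low minus other, was 7.05 (standard error, 0.866; adjusted p = 2.24e-07 in limma), 132-fold on that scale. Pparg was at 1522, 2037 and 2188 in the same order, against 11.2, 40.3 and 964 in the others. Again all 3 lay above all 25, with a difference of 5.35 (standard error, 0.779; adjusted p = 3.18e-06 in limma), 40.8-fold. In an exact permutation test over the 3276 splits of 3 against 25 tumors, the adjusted p was 0.00173 for Fabp4 and for Pparg.

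Lpl was at 1326 in PLK2null-732, 959 in PLK2null-733 and 1572 in PLK2null-743, against 32.5, 368 and 1502 in the other 25. PLK2null-743 alone lay above all of these. The difference was 2.00 (standard error, 0.780; adjusted p = 0.0445 in limma), and it was close to the threshold: the adjusted p was 0.0508 in the exact permutation test and 0.0608 in limma with no filter on low values, and the call was lost in 13 of 28 fits that left out a tumor.

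The genes of fat-storing cells did not pass the threshold in this comparison. Adipoq was at 3.58, 7.19 and 11.9 in PLK2null-732, PLK2null-733 and PLK2null-743, against 0, 10.3 and 249 as the lowest, median and highest of the other 25, a difference of -0.17 (adjusted p = 0.933 in limma). Cfd was at 5.73, 19.8 and 55.9 (difference, -0.25; 0.927) and Cidec at 1.43, 1.20 and 14.7 (difference, -0.57; 0.775), with PLK2null-743 highest of the 3 for each. Plin1 was at 22.9, 15.6 and 27.1, against a median of 1.44 and a highest value of 147 in the others, and its difference of 2.27 missed the threshold (adjusted p of 0.123 in limma). Lep was at 0, 0.599 and 2.26 and Retn at 4.30, 1.80 and 5.65, and both had means below 10 in these 28 tumors, with differences of -0.55 and -0.15 when no filter was applied. Of the 7 genes tested, 3 were higher and 0 lower, against 37.3% of 17153 genes called, 20.2% higher and 17.1% lower. The median difference of the 7 genes was 2.00, against 0.02 over all genes tested.

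Endothelial markers were high in the same tumors. All 6 endothelial genes tested were higher in the claudin-low Plk2-/-; p53-/- tumors, with a median difference of 4.85. The largest differences were in Tie1 (6.18), Kdr (5.87) and Pecam1 (4.85). The summed level of the 6 was 165585 to 186496 in the 3 claudin-low tumors and 2572 to 7743 in 24 of the other Plk2-/-; p53-/- tumors. It was 78025 in the remaining one, PLK2null-7763, and 2041 to 16462 in the p53-/- tumors. PLK2null-7763 was also the tumor nearest to the claudin-low group for Fabp4 and Pparg, with Fabp4 at 51564 and Pparg at 964, but unlike that group it had Adipoq at 84.4, Cfd at 379 and Cidec at 93.2. It is not among the tumors named as claudin-low, but its summed level of 6 epithelial genes was low, at 13539. That sum was 34899 to 119162 in the 24 others, 33742 in T11 and 45.7 to 291 in the 3 claudin-low Plk2-/-; p53-/- tumors. Without PLK2null-7763 the claudin-low difference was 7.30 for Fabp4 and 5.53 for Pparg.

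Genes of B lymphocytes were high in these tumors too. Ms4a1 (5.24; adjusted p = 0.000379 in limma), Cd79a (4.51; 0.00205) and Cd79b (4.01; 0.00314) were higher in the 3 tumors than in the other 25. Cd22 differed by 1.22 (adjusted p = 0.0634 in limma), short of the threshold. Cd79a was at 213, 243 and 269 in PLK2null-732, PLK2null-733 and PLK2null-743, 158 in PLK2null-7763, 2625 in PLK2null-1981 and 1.73 in T11. Its median in the other 25 tumors was 6.82. PLK2null-1981, the highest for Cd79a, had Fabp4 at 2555, rank 7 from the highest over all tumors. Its Pparg was 62.8, rank 15 from the highest. The part of B cell RNA in the Fabp4 and Pparg levels was not tested.

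Fabp4 was also set against Pecam1, an adhesion molecule of endothelium and the only endothelial gene used in this way. Tie1 and Kdr differed more than Pecam1 between the claudin-low and other tumors, and ratios to them were not taken. The ratio of Fabp4 to Pecam1 was 2.24 to 3.58 in PLK2null-732, PLK2null-733 and PLK2null-743, and 2.26 in PLK2null-7763. It lay at 0.155 to 1.67, with a median of 0.537, in the 24 other Plk2-/-; p53-/- tumors. In the p53-/- tumors it ran from 0.174 to 3.52, so that the highest of these reached the claudin-low ratio. For Gpihbp1, which anchors lipoprotein lipase on capillaries, the ratio to Pecam1 was 0.428 to 0.488 in the claudin-low tumors, close to the median of 0.456 in the 24 others. The ratio of Pparg to Pecam1 was 0.0330 to 0.0629 in the claudin-low tumors, within the range of the 24 others (0.00889 to 0.231).

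Correlations with the endothelial sum were taken without the 3 claudin-low Plk2-/-; p53-/- tumors and PLK2null-7763, which held sums of 78025 to 186496. The 24 other Plk2-/-; p53-/- tumors spanned only 2572 to 7743, so these values cannot show whether a gene followed the sum over all tumors. In these 24 tumors and in the 13 p53-/- tumors no correlation of a fat gene with the sum passed the threshold after adjustment. Over the 24 other Plk2-/-; p53-/- tumors the correlation with its log2 value was 0.294 for Fabp4 (permutation p = 0.160; rho, 0.201, permutation p = 0.346) and 0.0147 for Pparg (permutation p = 0.946; rho, 0.0852, permutation p = 0.692). Leaving out the 2 tumors farthest in endothelial sum gave 0.169 and 0.0249. Over the 13 p53-/- tumors r was 0.0755 for Fabp4 (permutation p = 0.805; rho, 0.0879, permutation p = 0.778) and 0.491 for Pparg (permutation p = 0.0868, adjusted p = 0.780; rho, 0.698, permutation p = 0.0103, adjusted p = 0.0931), and 0.105 and 0.411 without the 2 farthest. The adjustment covered the 9 genes in each group. The part of endothelial RNA in the Fabp4 and Pparg levels was not tested.

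**Figure D5:**
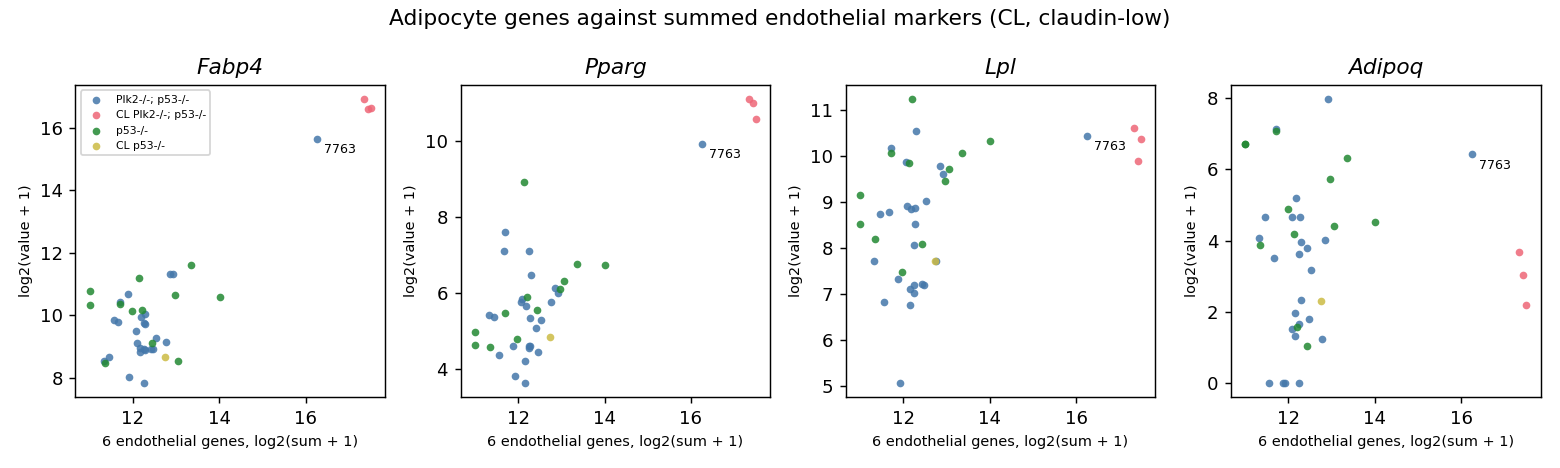
Fabp4, Pparg, Lpl and Adipoq against the summed level of 6 endothelial genes in 41 tumors, as log2(value + 1) and log2(sum + 1), with colors for genotype and claudin-low (CL) tumors. The 3 claudin-low Plk2-/-; p53-/- tumors and PLK2null-7763 stand apart at the right, high for Fabp4 and Pparg, while Adipoq is spread over its range among tumors of low endothelial sum.

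The counts in the other gene groups of the claudin-low comparison, here and in the next paragraph, stand beside 20.2% of all genes called higher and 17.1% called lower. Of 16 other adipocyte genes tested, 3 were higher, Cd36 (6.09; adjusted p = 3.68e-05 in limma), the melanocortin receptor accessory gene Mrap (3.49; 0.00518) and the amine oxidase Aoc3 (2.74; 0.000165). A further 4 were lower, Adig (-2.41), the lipid synthesis enzymes Agpat2 (-1.998) and Gpd1 (-1.99), and Cebpa (-1.80), and the median difference was 0.11. Among 9 adipokine receptors and partners of Lpl, 3 were higher, Gpihbp1 (4.87), the Lpl inhibitor Angptl4 (3.08) and the adiponectin-binding cadherin Cdh13 (3.05), and the Lpl activator Apoc2 (-1.89) was lower. The main adiponectin receptors Adipor1 and Adipor2 had differences of -0.16 and -0.41, and the leptin receptor Lepr 0.71, none past the threshold. Of 8 enzymes of fatty acid synthesis, 6 were lower, led by Scd1 (-4.74), Elovl6 (-1.77) and Me1 (-1.68), and 0 were higher.

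Of 5 brown fat genes tested, the thermogenic regulators Ppargc1a (-6.88) and Dio2 (-4.22) were lower and Prdm16 (3.88) was higher. Of 7 progenitor genes, Cd34 (5.84), Dlk1 (3.72), Zfp423 (3.01) and Dpp4 (2.89) were higher and Pdgfra (-2.38), a marker of fat and fibroblast progenitors, was lower. Cd34 also marks endothelium. The 6 epithelial genes were all lower, led by Krt18 (-10.18), Krt8 (-9.61) and Cldn3 (-9.48). The class takes its name from low claudin levels and was assigned from expression of these tumors, so the epithelial differences are a description of that assignment. Of 6 fibroblast genes Lum (-2.81) and Dcn (-2.50) were lower and 0 were higher. Of 6 macrophage genes, which could include cells that make Lpl, Mrc1 (1.24) was higher and 0 were lower, and of 5 muscle genes tested 0 passed the threshold in either direction. Of 5 Schwann cell genes Mbp (2.37) and Prx (1.12) were higher and Cdh19 (-6.02) was lower.

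Paralogs show which family member carried a difference. Near-identical sequence between paralogs can split reads, which makes low values uncertain. In the claudin-low comparison Fabp5, the epidermal fatty acid binding protein, rose by 1.73 (adjusted p = 0.00795 in limma), from 3897 in the others to 10968 in the 3 claudin-low tumors, and Fabp3 (-0.31) and Fabp7 (1.16) did not pass the threshold. The other PPAR receptors, Ppard (0.76) and Ppara (0.26), did not pass it either. Lipc (3.59) and Plin2 (1.01) were higher, Cidea (-3.44) and Lipg (-2.06) were lower, and Plin3 (-0.48), Retnla (2.00) and Retnlg (0.94) did not pass. Of 12 paralogs tested, 3 were higher and 2 lower, against 20.2% and 17.1% of all genes. Between genotypes, of 13 tested, Retnla (-3.94; adjusted p = 0.000187 in limma) and Plin3 (-0.84; 4.17e-06) were lower and 0 were higher, against 15.3% and 24.3% of all genes. The remaining differences between genotypes were -1.14 for Fabp3, 0.30 for Fabp5, -0.67 for Fabp7, 1.03 for Retnlg, -0.35 for Plin2, -0.73 for Plin5, -1.18 for Cidea, -0.03 for Lipc, 0.86 for Lipg, -0.30 for Ppara and -0.04 for Ppard.

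T11, the claudin-low p53-/- tumor, did not show the Fabp4 and Pparg levels of the claudin-low Plk2-/-; p53-/- tumors. It had Fabp4 at 407, Pparg at 27.3 and Lpl at 212, each inside the span of values of the other 12 p53-/- tumors. Its Adipoq was 3.90, Cfd 5.19, Plin1 4.76, Cidec 3.03 and Lep 2.16, all low but within that range, and Retn was at 0. Its endothelial sum was 6876. Its epithelial sum was 33742, below the 74293 to 295213 of the other 12 but far above the 45.7 to 291 of the claudin-low Plk2-/-; p53-/- tumors. An interaction fitted over all 41 tumors, with T11 alone in the p53-/- arm and assumed to vary like the others, gave a claudin-low effect on Fabp4 of 7.05 in Plk2-/-; p53-/- and -1.49 in p53-/- tumors, which differed by 8.54 (standard error, 1.58; adjusted p = 0.000396 in limma). For Pparg the effects were 5.35 and -1.06 and differed by 6.41 (standard error, 1.52; adjusted p = 0.00474 in limma). For Lpl they differed by 3.62 (adjusted p = 0.117 in limma). For Adipoq, Cfd, Cidec, Plin1 and Retn they differed by 2.28 to 4.25, none past the threshold, and 9.97% of 17208 genes were called. These p-values set 1 tumor against the spread of the others and do not show a difference between genotypes: a property of T11 and of claudin-low p53-/- tumors cannot be told apart, and the epithelial sums show that the arms were unlike.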

How the data were processed

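The authors aligned paired-end reads to mm10, quantified genes and scaled the counts of every tumor to a common upper quartile. The submitters' processing notes name STAR 2.7.6a, Salmon 1.4.0, Picard 2.22.4 and SAMtools. The deposited values are a linear signal, scaled estimated counts with an upper quartile of 1000, and 51.5% of them are 0. Each column was matched to a tumor by name. Per tumor, 77.6 to 80.5% of values above 0 came out whole to within 0.1 read, too few to recover counts, so no count model was used.

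Genotype came from the labels. Claudin-low status is not in the labels. It came from the study's own classification and from the rule that chose the 9 genes, which names PLK2null-732, PLK2null-733, PLK2null-743 and T11. The 9 genes, the gene lists and the tests were chosen with earlier results of these data known. Differences were tested by limma 3.58.1 (R 4.3.3), on log2(value + 1) of genes whose mean over the fitted tumors reached 10, with Benjamini-Hochberg adjustment over all genes tested and a threshold of 0.05. The log2(value + 1) scale understates changes of low genes. Correlations, permutation tests and figures used Python 3.11.15, scipy 1.17.1, numpy 2.4.6, pandas 2.3.3 and matplotlib 3.10.9. Positions and exon lengths came from GENCODE on GRCm38. The fits were tested on simulated data. Named genes are the 9, up to 3 called genes of each list with the largest differences and any gene a count of 5 or fewer covers, all paralogs with a mean of at least 10, and the 10 genes most correlated with Adipoq. A marker gene is not reported here, and the genes of its list are given singly. Adipor1, Adipor2 and Lepr in the claudin-low comparison were named after their values were seen. Alternatives were other pseudocounts (10 and 0.1), filters (none, and a mean of at least 100), TMM rescaling, a limma trend, permutation tests and fewer tumors.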

Additional observations from a re-analysis of the deposited data

Results flagged for a closer look

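The claudin-low p53-/- tumor T11 stood below the 3 claudin-low Plk2-/-; p53-/- tumors for Pparg, at 27.3, and for Fabp4, at 407, with gaps that were 0.917 and 0.960 of the range of the 4 tumors on log2(value + 1). In the 7 Plk2-/-; p53-/- tumors that the study follows in its latency data, PLK2null-7763 stood above the rest for Fabp4, at 51564, with a gap of 0.636 of the range on the same scale. The gap was examined in 18 combinations of a gene and a group, of which these 3 passed Dixon's criterion, and chance passes about 1 in 20. The claudin-low effect in the Plk2-/-; p53-/- tumors and that of T11, the only tumor in the p53-/- arm, differed by 8.54 for Fabp4 and by 6.41 for Pparg on the log2 scale, which sets 1 tumor against the others and does not show a difference between genotypes.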

How the results depend on the processing

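Between genotypes, the number of the 9 genes called fell from 3 to 1 with no filter on low values and to 1 in the permutation test. Cidec was the gene left in each. It was also 1 where a mean of 100 was required, but Cidec and Retn lay below that mean and were not tested. The 1 gene called there was thus not Cidec. With only the 7 Plk2-/-; p53-/- tumors of the latency data it was 0, and 2942 genes were called over all in place of 6802. Leaving out each of the 41 tumors in turn, chosen after seeing the data, gave 1 to 5 of the 9 genes and 6346 to 7074 genes over all. In the claudin-low comparison, leaving out each of the 28 tumors gave 2 to 3 of the 9 genes and 4527 to 6587 over all, the lowest without PLK2null-732, and the 25 fits that left out another tumor were also chosen after seeing the data. Directions that turned belonged to differences that did not pass the threshold. Between genotypes, Pparg turned to -0.35 and Fabp4 to -0.48 without the 4 claudin-low tumors, and Fabp4 to -0.10 with only the 7 tumors. In the claudin-low comparison, Adipoq turned to 0.34 and Cfd to 0.031 with a pseudocount of 0.1, Adipoq to 0.027 and Cfd to 0.028 without PLK2null-1981, Adipoq to 0.21 and Cfd to 0.53 without PLK2null-732, and Retn to 0.22 without PLK2null-733. Over the fits that left out a tumor, the differences ran from -0.53 to 0.21 for Adipoq, from -1.01 to 0.53 for Cfd and from -0.24 to 0.22 for Retn. The cause was not tested. Fabp4 and Pparg were called in every alternative of the claudin-low comparison, with 4.86 and 3.71 the smallest differences, when T11 was counted with the claudin-low tumors. Depth limits Lep, Retn, Plin1 and Cidec, which were at or below 3 reads in 23, 15, 15 and 13 of 41 tumors. No paired analysis was possible because the labels give no replicate numbers that tumors of the groups share.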
